A study of Mus musculus with 8 samples.

Results

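Lipid-making genes of the mouse hepatocyte were followed here through 36 genes, 20 of fatty acid and triglyceride synthesis and 16 of the cholesterol pathway, out of 18193 genes that the array's annotation names singly. A gene was represented by the probe set, a group of short probes against one transcript, that carried exactly its symbol and had the highest mean intensity over the arrays. All 36 genes had such a probe set. Of them, 35 could be tested, because the single probe set for Insig1 gave no usable value on 1 of the 8 arrays; Insig1 is therefore given from a separate fit that kept such probe sets, and stands outside the counts.

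Hepatocytes turn surplus carbon into fat and sterols from one precursor, acetyl-CoA. In the fatty acid branch Acly supplies acetyl-CoA, Acaca carboxylates it, Fasn builds palmitate with reducing power from enzymes such as Me1, elongases and desaturases modify the chain, and Gpam, Agpat2, the lipins and the Dgat enzymes attach it to glycerol; transcription of this branch is driven by SREBP-1c (from Srebf1) and by ChREBP (Mlxipl). In the cholesterol branch the mevalonate pathway runs from Hmgcs1 through Mvk, Pmvk, Mvd, Idi1, Fdps, Fdft1 and Sqle to Lss and the enzymes that finish the sterol ring system, under SREBP-2 (Srebf2), while Insig1 and Insig2 hold the SREBP precursors in the endoplasmic reticulum when sterol is plentiful.

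The cells were primary hepatocytes of C57BL6/129SVJ mice, either wild type (WT) or lacking transglutaminase 2 (TG2KO, called KO here), a protein-crosslinking enzyme encoded by Tgm2. Each genotype was kept for 15 h either without ethanol (0 mM, untreated) or with 100 mM ethanol, and each of the 4 groups had 2 arrays, A and B. How the knockout allele was made, and whether A and B came from separate mice or cultures, is not given in the sources used here, so a p-value covers no more than the scatter among these arrays, and that scatter may be technical. The treatment text of both B arrays from ethanol-treated cells reads as an untreated incubation, whereas their titles and source names give 100 mM; the titles were followed, and results that depend on these 2 arrays are also given without them or with both of them taken as untreated.

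Promoter sequence was available from RefSeq (assembly GRCm38.p6) for 28 of the 36 genes, as the 250 bases before each annotated start. The windows of 5 genes are shown: 3 cholesterol genes that were lower in KO in both treatments, with Hmgcs1 the only one of its branch to hold the sterol element core, and 2 fatty acid genes whose ethanol effect differed between the genotypes. They are Hmgcs1 (chr13:119690101-119690350, plus strand), Idi1 (chr13:8885356-8885605, plus strand) and Cyp51 (chr5:4104698-4104947, minus strand) of the cholesterol branch, and Fasn (chr11:120824548-120824797, minus strand) and Thrsp (chr7:97417551-97417800, minus strand) of the fatty acid branch. Each is written 5′ to 3′ in the direction of the gene. Capitals mark matches on either strand to 4 motifs: TCACNCCAC, the core of the classical sterol regulatory element, CACGTG, the E-box that SREBP-1 can also bind, CCAAT, which NF-Y binds, and GGGCGG, the GC box that Sp1 binds.
Hmgcs1: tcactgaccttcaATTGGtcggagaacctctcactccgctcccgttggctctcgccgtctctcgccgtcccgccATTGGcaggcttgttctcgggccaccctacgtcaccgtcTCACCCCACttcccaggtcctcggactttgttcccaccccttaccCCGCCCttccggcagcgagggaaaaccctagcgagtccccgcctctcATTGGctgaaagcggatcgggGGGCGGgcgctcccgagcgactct
Idi1: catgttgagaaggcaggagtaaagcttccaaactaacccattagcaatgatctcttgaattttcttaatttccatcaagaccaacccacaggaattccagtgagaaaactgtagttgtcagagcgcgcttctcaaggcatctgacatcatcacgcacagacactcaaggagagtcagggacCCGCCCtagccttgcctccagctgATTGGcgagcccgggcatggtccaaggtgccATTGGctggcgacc
Cyp51: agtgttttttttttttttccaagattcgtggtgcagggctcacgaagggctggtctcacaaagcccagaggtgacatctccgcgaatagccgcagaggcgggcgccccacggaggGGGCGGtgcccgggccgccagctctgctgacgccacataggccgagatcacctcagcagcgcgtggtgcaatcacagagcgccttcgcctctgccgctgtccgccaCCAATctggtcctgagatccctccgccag
Fasn: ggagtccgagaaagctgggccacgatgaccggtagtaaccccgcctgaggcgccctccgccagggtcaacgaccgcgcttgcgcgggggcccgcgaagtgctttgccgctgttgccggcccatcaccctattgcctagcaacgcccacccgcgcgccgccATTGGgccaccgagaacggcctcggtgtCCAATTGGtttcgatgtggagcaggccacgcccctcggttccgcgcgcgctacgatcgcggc
Thrsp: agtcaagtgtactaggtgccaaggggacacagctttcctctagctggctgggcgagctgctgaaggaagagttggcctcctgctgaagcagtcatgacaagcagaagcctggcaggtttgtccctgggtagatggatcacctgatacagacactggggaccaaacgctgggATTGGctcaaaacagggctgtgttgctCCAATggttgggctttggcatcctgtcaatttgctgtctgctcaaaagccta
The Hmgcs1 window held the sterol element core, 3 CCAAT motifs and 2 GC boxes, the Idi1 window 2 CCAAT motifs and 1 GC box, and the Cyp51 window 1 of each. In Fasn the capitals mark 3 CCAAT motifs, of which 2 share bases on opposite strands, and in Thrsp 2 CCAAT motifs; neither window held a GC box. Over the branches, CCAAT occurred in 13 of 18 windows of the cholesterol genes (72.2%), in 10 of 22 windows of the fatty acid genes (45.5%) and in 33.8% of all 32851 windows. GC boxes occurred in 14 of the 18 (77.8%), 10 of the 22 (45.5%) and 32.7% of all windows. The sterol element core was in 1 window of each branch (Hmgcs1 and a second start of Mlxipl), against 1.05% of all windows, and CACGTG in 3 of each, against 6.02%. A match describes the letters of the window and not binding, and some genes had several windows.

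As a check of the genotype labels, Tgm2 read between 16656 and 16836 on the 4 WT arrays, 378 and 368 on the untreated KO arrays and 704 and 628 on the ethanol-treated KO arrays. The deposited medians ran from 12.8 to 37.1 and were lowest in untreated KO. Correlations between arrays were 0.971 to 0.983 within a group and 0.950 to 0.982 between groups. Hepatocyte markers were present throughout, with a summed normalised intensity of 60471 to 65159 over 7 of 8 genes measured. The sum hides shifts by genotype in both directions: in untreated KO 4 of the 7 were called lower and 2 higher. Hnf4a read 1146, 1199, 1592 and 1650 in WT against 467, 430, 820 and 704 in KO. Cps1 averaged 4673 in untreated WT and 3048 in untreated KO, and Cyp2e1 9977 and 15137. The summed level of 7 of 8 macrophage markers was 992 and 1030 (WT) and 1661 and 1601 (KO) before ethanol, and 1128 and 1102 (WT) and 2366 and 2083 (KO) after it. Of these genes Cd68 was called higher in untreated KO. Csf1r (182 and 151 in untreated WT, 97.2 and 102 in untreated KO) and Marco (127 and 135 against 65.3 and 52.7) were called lower there, and Adgre1 (108 and 134 against 84.1 and 70.6) and Clec4f (91.1 and 85.3 against 75.1 and 75.8) read lower without a call. Of 5 bile duct markers 4 were measured, with sums of 312 to 460 in WT and 768 to 1118 in KO; Sox9 alone carried the excess (232 to 323 in WT, 686 to 1049 in KO), while Krt19 (13.0 to 49.6 in WT, 6.69 to 40.9 in KO), Krt7 and Epcam overlapped. The 2 measured adipocyte markers (of 4) summed to 3.46 to 12.7, under the offset of 16. Stellate cell markers (8 of 8) summed to 194 to 508, endothelial markers (6 of 6) to 354 to 574 and leukocyte markers (5 of 6) to 139 to 236. The part of other cell types in the results was not tested, and in these bulk samples fewer cells of a type and less RNA per cell cannot be told apart. By the bioC/bioB ratio of the added control transcripts the arrays fell into a first spike-in class, the A arrays of every group but untreated KO (1.02 to 1.37), and a second, the other 5 arrays (2.74 to 3.10); values within each class are given beside the comparisons. A class holds at most 1 array of a group, except 2 of untreated KO in the second. The genes described within a class were called on the same arrays, so these values are not a separate test.

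Intensities below are quantile-normalised, so equal values on different arrays are equal ranks. Differences are on the scale of log2(intensity + 16), which understates changes of dim probe sets, with the model's standard error (SE) from 2 arrays per group, and a member was called at a Benjamini-Hochberg adjusted p under 0.05 over all 19814 probe sets tested with limma. Statements that the arrays of 2 groups did or did not overlap describe the named genes, many of them named because they were called. The share of all probe sets without overlap is not given, so such statements add no support to a call.

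**Figure D1:**
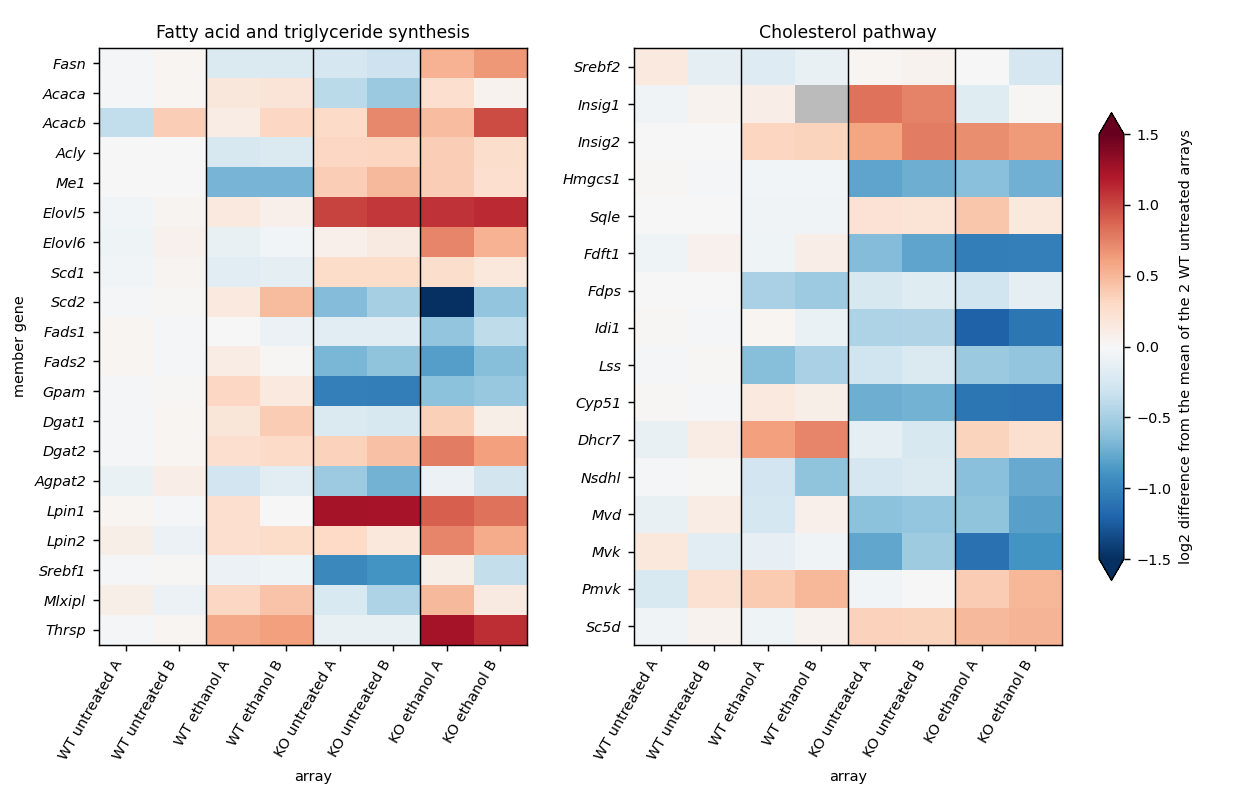
Heat map of the 36 genes (rows) on the 8 arrays (columns), as the log2 difference from the mean of the 2 untreated WT arrays; grey marks the missing Insig1 value, and values beyond 1.5 take the end colour. Elovl5 and Lpin1 are high in all 4 KO arrays, Cyp51, Fdft1 and Idi1 are low in them, and Thrsp and Fasn are highest on the 2 ethanol KO arrays.

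The first comparison asked how loss of transglutaminase 2 altered these genes in untreated cells. Fatty acid genes moved in both directions, with Lpin1 and Elovl5 more abundant in KO and Gpam and Srebf1 less abundant, whereas the cholesterol branch was mostly lower in KO. Across all probe sets tested, 15.3% were called higher and 16.9% lower in untreated KO. Of the 20 fatty acid and triglyceride genes, 6 were higher, 6 lower and 8 not called, with a median difference of -0.13, against -0.04 for all probe sets.

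Among the regulators, Srebf1 read 985 and 1015 in untreated WT and 503 and 528 in untreated KO. The KO arrays lay clearly below the WT arrays, by -0.94 ± 0.13 (adjusted p = 0.00067). Mlxipl, the other lipogenic activator, read 598 and 526 against 477 and 404, without overlap but also without a call (-0.34 ± 0.14, adjusted p = 0.089). Thrsp, a small nuclear protein that promotes lipogenesis, differed by -0.11 and was not called, while its other tested probe set (mean 485) was called higher in KO (0.46, adjusted p = 0.013).

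The enzymes that make palmitate split. Acly, the citrate-cleaving enzyme, read 7547 and 7605 in WT and 9373 and 9512 in KO, and Me1, malic enzyme, 3235 and 3268 against 4211 and 4554. Both were higher on each KO array than on either WT array, Acly by 0.32 ± 0.06 (adjusted p = 0.0033) and Me1 by 0.43 ± 0.07 (adjusted p = 0.0017). Acaca, the acetyl-CoA carboxylase of the lipogenic cytosol, went the other way, at 687 and 710 in WT and 526 and 469 in KO (-0.48 ± 0.10, adjusted p = 0.0063). Fasn, which assembles palmitate, was slightly lower in KO, at 1675 and 1737 against 1432 and 1372 (-0.28 ± 0.08, adjusted p = 0.020).

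Enzymes that lengthen and desaturate the chain differed by gene. Elovl5, which elongates polyunsaturated chains, read 1768 and 1862 in WT and 3674 and 3797 in KO. Its KO arrays were far above WT, by 1.03 ± 0.07 (adjusted p = 9.3e-06, the smallest of the 36 genes in this comparison). Fads2, the delta-6 desaturase that acts on the same chains, was lower in KO instead, at 3291 and 3151 against 1997 and 2120 (-0.64 ± 0.08, adjusted p = 0.00045). Scd1, which makes oleate and palmitoleate, lay near the top of the intensity range at 12825 and 13547 in WT and 15904 on both KO arrays (0.27 ± 0.06, adjusted p = 0.0079). Elovl6, Fads1 and Scd2 were not called.

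In triglyceride assembly the first acyl transferases, Gpam and Agpat2, were lower in KO, and Lpin1 and Dgat2 were higher. Gpam, which acylates glycerol 3-phosphate, read 1938 and 1973 in WT and 954 and 943 in KO. Both KO arrays were far below both WT arrays (-1.03 ± 0.08, adjusted p = 2.3e-05). Agpat2, which adds the second chain, was also lower, at 1436 and 1649 against 1046 and 934 (-0.63 ± 0.11, adjusted p = 0.0018). Lpin1, a phosphatidate phosphatase and nuclear coregulator, read 314 and 300 in WT and 753 and 744 in KO, a difference of 1.24 ± 0.12 (adjusted p = 6.7e-05). Dgat2, which adds the last chain, read 1929 and 2022 against 2513 and 2678 (0.39 ± 0.08, adjusted p = 0.0042), and Dgat1 and Lpin2 were not called.

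The cholesterol branch of untreated cells had 7 of 15 tested genes lower in KO, 2 higher and 6 not called, with a median of -0.24. Srebf2, its main activator, read 490 and 399 in WT and 453 and 459 in KO, with overlapping arrays and a difference of 0.04 ± 0.13 (adjusted p = 0.84). Both Insig genes were higher in KO. Insig2 read 1263 and 1280 against 1927 and 2182 (0.68 ± 0.08, adjusted p = 0.00024), and Insig1, itself an SREBP target, 1056 and 1137 against 1931 and 1843 (0.78 ± 0.11, adjusted p = 0.00068, in the fit on probe sets with a missing value).

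Along the mevalonate pathway Hmgcs1, the entry enzyme whose promoter is shown above with the sterol element core, read 8346 and 8134 in WT and 4740 and 4970 in KO. It was lower on both KO arrays by -0.76 ± 0.06 (adjusted p = 3.3e-05). Mevalonate kinase, Mvk, read 255 and 203 against 125 and 152 (-0.66 ± 0.18, adjusted p = 0.018). Mvd, the decarboxylase 2 steps later, read 268 and 313 against 184 and 188 (-0.60 ± 0.16, adjusted p = 0.020). Idi1, the isopentenyl diphosphate isomerase, read 2576 and 2513 against 1839 and 1860 (-0.46 ± 0.08, adjusted p = 0.0021), so all 4 of these genes had KO arrays wholly below WT.

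Further down, Fdft1, squalene synthase, read 2349 and 2575 in WT and 1563 and 1413 in KO (-0.72 ± 0.09, adjusted p = 0.00032). Cyp51, which demethylates lanosterol, read 2150 and 2096 against 1269 and 1291. Its KO arrays agreed closely and lay -0.72 ± 0.07 below WT (adjusted p = 9e-05). Fdps, farnesyl diphosphate synthase, was called lower by a small margin, at 5949 and 6014 against 5080 and 5277 (-0.21 ± 0.07, adjusted p = 0.047), and turned to 0.02 under trimmed-mean scaling. Sc5d, a late sterol desaturase, was higher in KO by its brightest probe set, at 3450 and 3735 against 4554 and 4519 (0.34 ± 0.07, adjusted p = 0.0056), while its 2 dimmer probe sets were called lower (-1.05 and -0.60). Sqle, squalene epoxidase, differed by 0.21 ± 0.09 and was not called (adjusted p = 0.11).

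Only arrays of the second spike-in class hold both genotypes untreated, and there the called fatty acid genes lay at 0.23 to 1.28 (6 higher) and -1.04 to -0.31 (6 lower) and the cholesterol genes at 0.28 to 0.67 (2 higher) and -0.79 to -0.22 (7 lower). The calls of Fasn (adjusted p = 0.066 to 0.13) were lost on leaving out any 1 of the 4 untreated arrays, those of Scd1 (0.066 to 0.083) without KO A, KO B or WT A, those of Fdps without any 1 of these 4 or of the WT ethanol arrays (0.068 to 0.24), of Mvd without KO A, KO B or WT B (0.083 to 0.14), of Mvk without KO A (0.13) or WT A (0.16), of Acaca without KO B (0.061) and of Sc5d without WT A (0.062).

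With ethanol present in both genotypes, KO differed from WT in 14 of 20 fatty acid genes and 11 of 15 cholesterol genes. Fasn, Me1, Elovl5, Thrsp and Elovl6 were higher in KO, Srebf1, Acaca and Agpat2 were not called, and Cyp51, Idi1 and Fdft1 of the cholesterol branch were lower by more than 1 on the log2 scale. All probe sets tested were called higher in 14.0% and lower in 15.1%. Of the 20 fatty acid and triglyceride genes, 10 were higher, 4 lower and 6 not called, with a median of 0.38, against -0.05 for all probe sets. This comparison shares no array with the untreated one.

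Thrsp read 1577 and 1635 in WT and 2546 and 2297 in KO (0.59 ± 0.08, adjusted p = 0.00069). Srebf1 read 943 and 953 against 1063 and 775, so the KO arrays lay on either side of WT and the difference was -0.06 ± 0.13 (adjusted p = 0.77). Mlxipl was likewise not separated, at 702 and 761 against 791 and 618 (-0.06 ± 0.14, adjusted p = 0.78). The 3 regulators therefore differed in whether their genotypes overlapped, and of them only Thrsp was called.

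Fasn read 1465 and 1467 in WT and 2451 and 2686 in KO. Each KO array was far above each WT array, by 0.80 ± 0.08 or 1.74-fold (adjusted p = 7.8e-05). Me1 read 1992 and 1993 against 4203 and 3887, a difference of 1.01 ± 0.07 (adjusted p = 1.2e-05), and Acly 6435 and 6529 against 9758 and 9107 (0.54 ± 0.06, adjusted p = 0.00019). Acaca overlapped, at 791 and 801 in WT and 833 and 726 in KO (-0.03 ± 0.10, adjusted p = 0.85).

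Elovl5 stayed high in KO, at 3870 and 3965 against 2017 and 1920 in WT (0.99 ± 0.07, adjusted p = 1.1e-05). Elovl6, which elongates palmitate to stearate, read 840 and 720 against 461 and 483, higher in KO by 0.70 ± 0.11 (adjusted p = 0.0013). Scd1 read 15847 and 14742 against 11702 and 11971 (0.37 ± 0.06, adjusted p = 0.0019). All 3 were higher on each KO array than on either WT array. Fads2, the desaturase of polyunsaturated chains, was lower and read 1809 and 2071 in KO against 3475 and 3247 in WT (-0.79 ± 0.08, adjusted p = 0.00015).

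Gpam stayed low in KO, at 1268 and 1315 against 2425 and 2173 (-0.82 ± 0.08, adjusted p = 8.4e-05), and Lpin1 stayed high, at 587 and 549 against 368 and 305 (0.73 ± 0.12, adjusted p = 0.0015). Agpat2 overlapped between the genotypes (0.04 ± 0.11). The other 4 called genes lie outside the 10 that the naming rule takes and are named after their values were seen: Dgat2 (0.42) and Lpin2 (0.38) were higher, and Fads1 (-0.44) and the dim Scd2 (-1.48) were lower. Scd2 read 77.3 and 102 in WT and 9.08 and 40.2 in KO, so its size rests on intensities close to the offset.

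The cholesterol branch with ethanol had 7 of 15 genes lower in KO, 4 higher and 4 not called, with a median of -0.24. Its regulators were little separated: Srebf2 read 385 and 409 in WT and 440 and 369 in KO (0.02 ± 0.13, adjusted p = 0.92). Insig2 was higher in KO, at 1595 and 1613 against 2069 and 1995 (0.34 ± 0.08, adjusted p = 0.012). Insig1 read 1175 on the single usable WT array and 960 and 1113 in KO, and was not called (-0.18 ± 0.13, adjusted p = 0.39).

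Cyp51 showed the smallest adjusted p of all 36 genes, at 2350 and 2261 in WT and 993 and 974 in KO. The difference was -1.22 ± 0.07, or 2.32-fold lower (adjusted p = 4.1e-06). Idi1 read 2590 and 2370 against 1085 and 1190 (-1.11 ± 0.08, adjusted p = 1.3e-05). Fdft1 read 2352 and 2637 against 1189 and 1197 (-1.05 ± 0.09, adjusted p = 3.8e-05). In these 3 genes the KO arrays were below every WT array of either treatment.

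Hmgcs1 read 8041 on both WT arrays and 5351 and 5013 in KO (-0.63 ± 0.06, adjusted p = 9.8e-05), and Mvk 207 and 219 against 96.2 and 115 (-0.92 ± 0.18, adjusted p = 0.0043). Mvd (-0.61 ± 0.16, adjusted p = 0.020) and Dhcr7, which makes cholesterol from its last precursor (-0.38 ± 0.10, adjusted p = 0.019), were also lower. The genes called higher were Sc5d (0.51 ± 0.07, adjusted p = 0.00072), Sqle, at 1414 and 1413 against 1966 and 1640 (0.34 ± 0.09, adjusted p = 0.020), Insig2, and Fdps, at 4262 and 4104 against 4859 and 5399 (0.29 ± 0.07, adjusted p = 0.012). Fdps was thus called in opposite directions in the untreated and the ethanol-treated cells.

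In the first spike-in class the called fatty acid genes lay at 0.44 to 1.07 (10 higher) and -1.90 to -0.59 (4 lower), and in the second at 0.28 to 1.04 and -1.07 to -0.29. The called cholesterol genes lay at 0.19 to 0.56 (4 higher) and -1.24 to -0.28 (7 lower) in the first, and at 0.21 to 0.46 and -1.20 to -0.49 in the second. Of the 11 cholesterol calls 7 were kept without WT ethanol A and 6 without WT ethanol B, where Nsdhl was newly called. With both B ethanol arrays taken as untreated, which leaves 1 ethanol array per genotype, most calls of both branches were lost and all kept their sign. Most calls over all probe sets were lost there too. Calls lost on leaving out 1 array were those of Sqle and Lpin2 (without KO ethanol A, WT ethanol A or WT ethanol B, 0.057 to 0.092), Insig2, Fdps and Dhcr7 (without either WT ethanol array, 0.051 to 0.13), Mvd (without KO ethanol B or WT ethanol B, 0.053 and 0.16) and Scd2 (without WT ethanol B, 0.10).

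Comparing the lists of calls, the 6 fatty acid genes higher in untreated KO (Acly, Me1, Elovl5, Scd1, Dgat2 and Lpin1) were also called higher with ethanol, making 6 of 6 and 6 of 10. Of the genes lower in KO, Fads2 and Gpam were called in both, 2 of 6 and 2 of 4. In the cholesterol branch 6 genes (Hmgcs1, Fdft1, Idi1, Cyp51, Mvd and Mvk) were lower in both, 6 of 7 and 6 of 7, and Insig2 and Sc5d were higher in both, 2 of 2 and 2 of 4. Of all probe sets 32.3% were called by genotype untreated and 29.1% with ethanol. How many of them were shared was not counted, so these overlaps cannot be read as particular to the members.

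**Figure D2:**
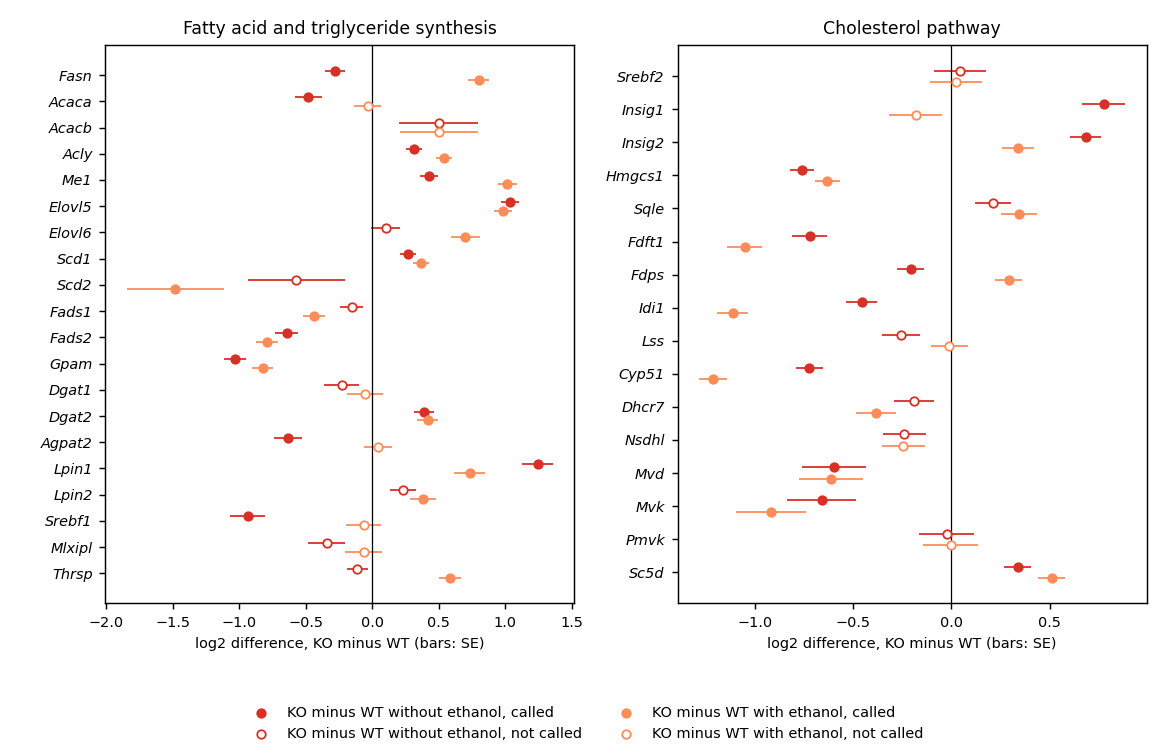
Log2 difference of KO minus WT (x axis, bars are SE) for each gene, without ethanol (red) and with ethanol (orange), filled where called. Elovl5 stands near 1 and Gpam near -1 in both, Fasn crosses from -0.28 to 0.80, and Cyp51, Idi1 and Fdft1 lie further to the left with ethanol.

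In WT cells ethanol was followed by calls for 2 fatty acid and 5 cholesterol genes. Thrsp rose and Me1 fell in the fatty acid branch, and in the cholesterol branch Dhcr7 and Insig2 rose while Fdps, Lss and Nsdhl fell. Over all probe sets 1.67% were called higher and 3.91% lower. The fatty acid branch had 1 of 20 genes called in each direction (median 0.12, all probe sets 0.01), and the cholesterol branch 2 of 15 higher and 3 lower (median -0.04). These counts are of the brightest probe sets, and dimmer ones of other members were also called. In the cholesterol branch those were of Hmgcs1 (-0.70 and -0.24) and Fdft1 (mean 1577, -0.38, adjusted p = 0.04).

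Me1 went from 3235 and 3268 to 1992 and 1993, a fall of both arrays to a common level (-0.70 ± 0.07, adjusted p = 0.00093). Thrsp went from 1035 and 1087 to 1577 and 1635 (0.59 ± 0.08, adjusted p = 0.0034). Fasn (-0.22 ± 0.08, adjusted p = 0.15), Acaca (0.18 ± 0.10, adjusted p = 0.40), Scd1 (-0.16 ± 0.06, adjusted p = 0.20), Srebf1 (-0.08 ± 0.13, adjusted p = 0.85) and Mlxipl (0.37 ± 0.14, adjusted p = 0.18) were not called. Dimmer probe sets were called lower for Acly (mean 2542, -0.97, adjusted p = 0.0012), Fads2 (mean 1766, -0.58, adjusted p = 0.0039), Scd1 (mean 7374, -0.39, adjusted p = 0.017) and Gpam (mean 133, -0.85, adjusted p = 0.033). A dimmer Lpin2 probe set (mean 540) was called higher (0.77, adjusted p = 0.018). The brightest probe sets of these genes were not called, so the count in this branch depends on the probe set chosen.

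Dhcr7 went from 785 and 920 to 1308 and 1422 (0.67 ± 0.10, adjusted p = 0.0056), and Insig2 from 1263 and 1280 to 1595 and 1613 (0.33 ± 0.08, adjusted p = 0.044). The 2 other tested Insig2 probe sets had the opposite sign and were not called (-0.21 and -0.12), and the Insig2 call was lost in 14 of 21 alternative settings. Fdps went from 5949 and 6014 to 4262 and 4104 (-0.51 ± 0.07, adjusted p = 0.0033). Lss, which cyclises squalene epoxide to lanosterol, went from 756 and 780 to 489 and 543 (-0.56 ± 0.10, adjusted p = 0.010), and Nsdhl, which acts on the sterol after Cyp51, from 1397 and 1432 to 1158 and 925 (-0.44 ± 0.11, adjusted p = 0.047). In all 5 the treated and untreated arrays did not overlap, while Hmgcs1 (-0.04 ± 0.06, adjusted p = 0.85), Sqle (-0.05 ± 0.09, adjusted p = 0.85), Srebf2 (-0.15 ± 0.13, adjusted p = 0.64) and Insig1 (0.10 ± 0.13 with 1 treated array, adjusted p = 0.84) were not called.

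Within the spike-in classes Thrsp differed by 0.60 and 0.58 and Me1 by -0.70 and -0.71, and the called cholesterol genes by 0.33 to 0.73 and -0.61 to -0.27 in the first class and 0.33 to 0.62 and -0.62 to -0.51 in the second. The 5 cholesterol calls fell to 1 without WT untreated A, 2 without WT ethanol B, 3 without WT ethanol A, KO untreated A or KO untreated B, and 3 with both B ethanol arrays left out; without WT untreated B 2 were kept and Pmvk was newly called. If both B ethanol arrays were taken as untreated, which leaves 1 ethanol array per genotype, the calls of both branches were lost and all of them kept their sign. Calls over all probe sets were lost there too. The 2 fatty acid calls became 5 without KO ethanol A or KO ethanol B, where calls over all 19814 probe sets went from 1105 to 2089 and 2094.

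In KO cells ethanol was followed by calls for 13 of 20 fatty acid genes. Thrsp, Fasn, Srebf1, Mlxipl, Acaca and the glycerolipid enzymes Gpam and Agpat2 rose, Fads1 and Lpin1 fell, and in the cholesterol branch Insig1, Idi1 and Cyp51 fell. All probe sets were called higher in 11.4% and lower in 10.8%. Of 20 fatty acid genes 11 rose and 2 fell (median 0.36, all probe sets -0.01). Of 15 cholesterol genes 2 rose and 5 fell (median -0.11).

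Thrsp went from 984 and 977 to 2546 and 2297, a rise of 1.29 ± 0.08 or 2.44-fold (adjusted p = 8.6e-05). Srebf1 went from 503 and 528 to 1063 and 775 (0.80 ± 0.13, adjusted p = 0.0034) and Mlxipl from 477 and 404 to 791 and 618 (0.65 ± 0.14, adjusted p = 0.010). All 3 regulators had both treated arrays above both untreated ones, with the wider spread between the treated arrays in Srebf1 and Mlxipl.

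Fasn went from 1432 and 1372 to 2451 and 2686 (0.86 ± 0.08, adjusted p = 0.00034), and Acaca from 526 and 469 to 833 and 726 (0.63 ± 0.10, adjusted p = 0.0032). Elovl6 went from 524 and 546 to 840 and 720 (0.53 ± 0.11, adjusted p = 0.0088). The untreated and treated arrays were apart in each of these genes. Acly (-0.00 ± 0.06, adjusted p = 0.98), Me1 (-0.12 ± 0.07, adjusted p = 0.27) and Scd1 (-0.06 ± 0.06, adjusted p = 0.53), which were high in untreated KO, were not called.

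In glycerolipid synthesis Gpam went from 954 and 943 to 1268 and 1315 (0.44 ± 0.08, adjusted p = 0.0051), Agpat2 from 1046 and 934 to 1450 and 1268 (0.45 ± 0.11, adjusted p = 0.016) and Lpin2 from 1175 and 1061 to 1589 and 1407 (0.42 ± 0.10, adjusted p = 0.016). The desaturase Fads1 fell from 2654 and 2657 to 1959 and 2271 (-0.33 ± 0.08, adjusted p = 0.021). Named after their values were seen, Dgat1 (0.45) and Dgat2 (0.30) were the other genes that rose, and Lpin1 the other that fell (-0.39 ± 0.12, adjusted p = 0.040).

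In the cholesterol branch Insig1 fell from 1931 and 1843 to 960 and 1113 (-0.86 ± 0.11, adjusted p = 0.0014), 1 array within and 1 below the WT range of 1056 to 1175. Idi1 fell from 1839 and 1860 to 1085 and 1190 (-0.69 ± 0.08, adjusted p = 0.00072), and Cyp51 from 1269 and 1291 to 993 and 974 (-0.37 ± 0.07, adjusted p = 0.0063). Fdft1 (-0.31 ± 0.09, adjusted p = 0.033), Lss (-0.31 ± 0.10, adjusted p = 0.044) and Nsdhl (-0.45 ± 0.11, adjusted p = 0.018) also fell. Dhcr7 rose from 768 and 716 to 1077 and 1007 (0.48 ± 0.10, adjusted p = 0.0099) and Pmvk, phosphomevalonate kinase, from 508 and 521 to 688 and 749 (0.47 ± 0.14, adjusted p = 0.042). Hmgcs1 (0.09 ± 0.06, adjusted p = 0.32), Sqle (0.08 ± 0.09, adjusted p = 0.57), Srebf2 (-0.17 ± 0.13, adjusted p = 0.38) and Insig2 (-0.01 ± 0.08, adjusted p = 0.92) were not called.

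Within the second spike-in class, which alone holds both KO treatments, the called fatty acid genes lay at 0.22 to 1.21 (11 higher) and -0.44 to -0.22 (2 lower) and the cholesterol genes at 0.43 to 0.53 and -0.63 to -0.31. The only treated KO array of that class is KO ethanol B, whose treatment text reads as an untreated incubation. The 13 fatty acid calls fell to 5 without KO untreated B, 6 without KO untreated A and 7 without KO ethanol A; the 7 cholesterol calls fell to 1, 3 and 4 in the same order, with Idi1 the one that was kept without KO untreated B. If both B ethanol arrays were taken as untreated, which leaves 1 ethanol array per genotype, the calls of both branches were lost and all of them kept their sign. Most calls over all probe sets were lost there too. Between the genotypes, Thrsp was called higher with ethanol in both, 1 of 1 and 1 of 11. Dhcr7 rose in both, 1 of 2 and 1 of 2, and Lss and Nsdhl fell in both, 2 of 3 and 2 of 5. The sharing over all probe sets was not counted. The Lss call in KO was lost in 15 of 21 alternative settings and the Nsdhl call in WT in 13 of 21. Neither of the 2 other tested Lss probe sets was called in WT or in KO.

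**Figure D3:**
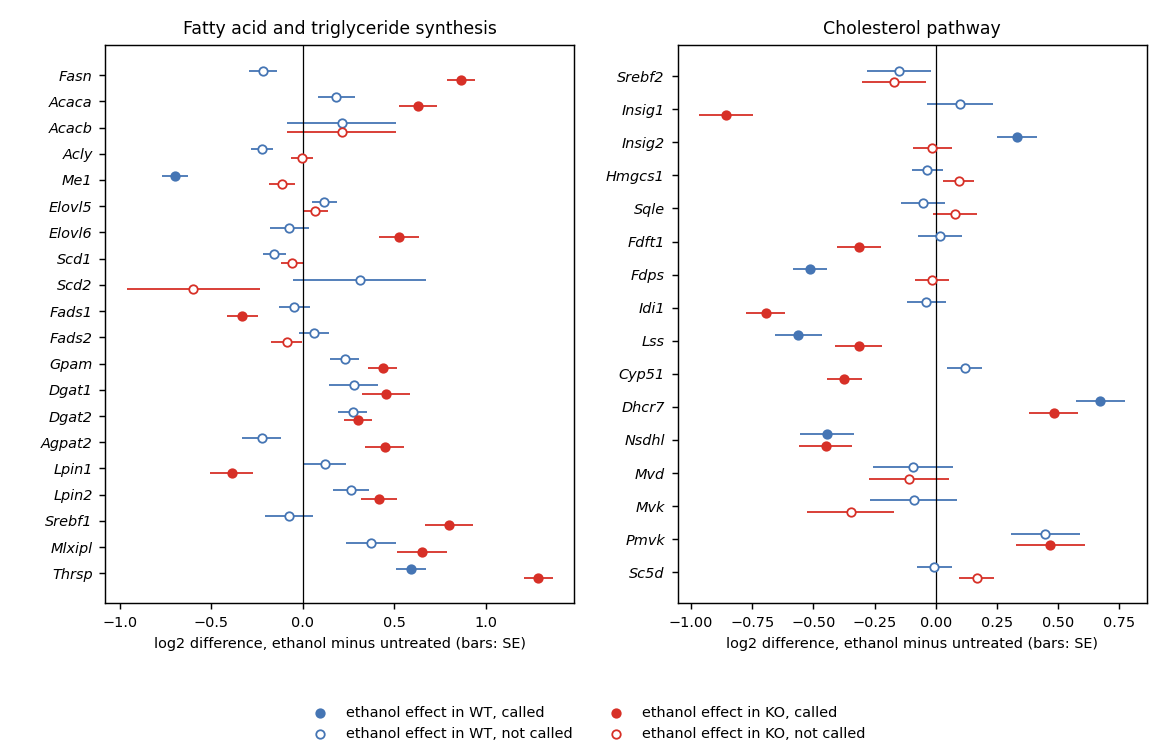
Log2 difference of ethanol minus untreated (x axis, bars are SE) for each gene in WT (blue) and KO (red), filled where called. Most fatty acid genes lie to the right in KO, up to Thrsp at 1.29, while Me1 at -0.70 and Fdps at -0.51 are moved in WT.

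The last comparison tested whether the ethanol effect itself differed between the genotypes (KO effect minus WT effect). By the brightest probe set of each gene, it differed for Fasn, Srebf1, Thrsp, Agpat2 and Me1, all upward in KO relative to WT. In the cholesterol branch it differed for Fdps, Idi1, Cyp51 and Insig1. Over all probe sets 3.57% were called higher and 1.78% lower. Of 20 fatty acid genes limma called 5 higher and 0 lower (8 and 2 at an unadjusted p under 0.05; median 0.19, all probe sets -0.01), and of 15 cholesterol genes 1 higher and 2 lower (median -0.02).

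For Fasn the ethanol effects were -0.22 in WT and 0.86 in KO, a difference of 1.08 ± 0.11 (adjusted p = 0.0018). Srebf1 differed by 0.87 ± 0.19 (adjusted p = 0.030) and Agpat2 by 0.67 ± 0.15 (adjusted p = 0.035), both with a call for lower levels in untreated KO and none in ethanol KO. Thrsp rose in both genotypes but further in KO (0.70 ± 0.11, adjusted p = 0.011). Its other tested probe set (mean 485) rose by 0.57 in WT and 0.76 in KO, a difference that was not called (0.19, adjusted p = 0.53). Me1 differed by 0.59 ± 0.10 (adjusted p = 0.013); it fell in WT and was not called in KO. The other tested Me1 probe set (mean 2110) fell in both WT (-0.49, adjusted p = 0.034) and KO (-0.78, adjusted p = 0.0017), with a difference of the opposite sign that was not called (-0.29, adjusted p = 0.29). Acaca (0.45 ± 0.15, adjusted p = 0.11), Scd1 (0.10 ± 0.09, adjusted p = 0.54) and Mlxipl (0.28 ± 0.20, adjusted p = 0.43) were not called, although the dimmer Scd1 probe set was (0.64, adjusted p = 0.011), with -0.39 in WT (adjusted p = 0.017) and 0.25 in KO (adjusted p = 0.038). Dimmer probe sets of Acly (mean 2542, 1.09, adjusted p = 0.0052), Fads2 (mean 1766, 0.88, adjusted p = 0.0045), Dgat2 (mean 1318, 0.95, adjusted p = 0.018) and Gpam (mean 133, 1.36, adjusted p = 0.022) were also called upward. The brightest probe sets of these genes were not called (0.22, -0.15, 0.03 and 0.21 in the same order). The remaining Fads2 probe set (mean 410) had the opposite sign and was not called (-0.97, adjusted p = 0.052).

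Fdps differed by 0.50 ± 0.10 (adjusted p = 0.022), with a fall in WT and no call in KO. Idi1 differed by -0.66 ± 0.11 (adjusted p = 0.013) and Cyp51 by -0.49 ± 0.10 (adjusted p = 0.025), with falls in KO that were not called in WT. The other tested probe sets, 1 of Idi1 (-0.44) and 2 of Cyp51 (-0.28 and -0.68), had the same sign and were not called. Insig1 differed by -0.96 ± 0.17 (adjusted p = 0.017), with 1 array for ethanol WT. Srebf2 (-0.02 ± 0.19, adjusted p = 0.96), Hmgcs1 (0.13 ± 0.09, adjusted p = 0.43) and Sqle (0.13 ± 0.13, adjusted p = 0.59) were not called.

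The 5 fatty acid calls fell to 1 without WT untreated B, WT ethanol A, KO untreated A or KO untreated B and to 2 without WT untreated A or WT ethanol B, and Fasn was kept in each of these. They became 9 without both B ethanol arrays and 10 without KO ethanol B, where calls over all probe sets went from 1061 to 3262 and 4397. The 3 cholesterol calls fell to 0 without WT untreated A, WT untreated B, WT ethanol A, KO untreated A or KO untreated B and to 1 without WT ethanol B, with 4 or 5 of the 15 at an unadjusted p under 0.05 in each of these. If both B ethanol arrays were taken as untreated, which leaves 1 ethanol array per genotype, the calls of both branches were lost and all of them kept their sign. Calls over all probe sets were lost there too.

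**Figure D4:**
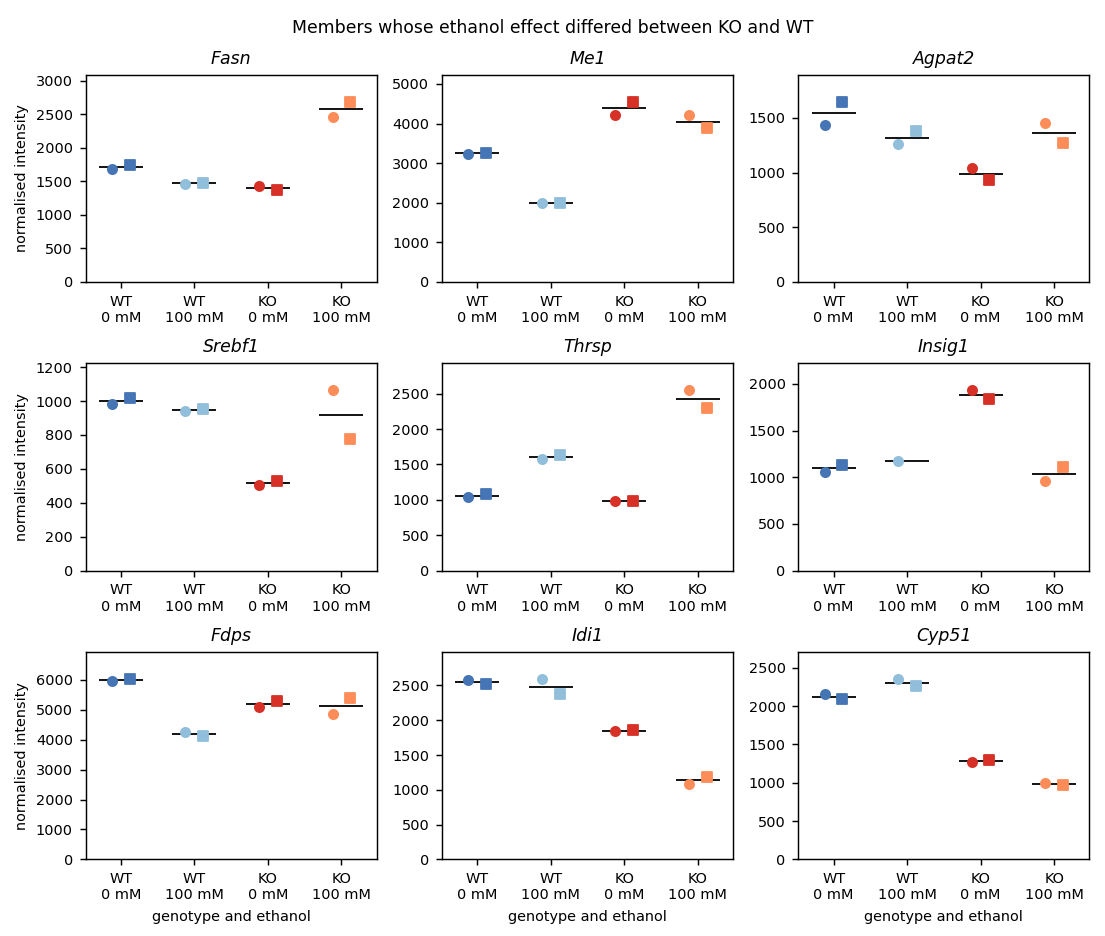
Normalised intensity (linear y axis from 0) of the 9 genes whose ethanol effect differed between genotypes, by genotype and ethanol; circles are A arrays, squares B arrays and bars group means. Fasn and Thrsp are highest in ethanol KO, Srebf1 and Agpat2 lowest in untreated KO, Insig1 highest in untreated KO, and Idi1 and Cyp51 lowest in ethanol KO.

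Across the 5 comparisons 19 of 20 fatty acid genes and 14 of 15 tested cholesterol genes were called at least once, against 49.0% of all probe sets. The members are the brightest probe sets of their genes, and bright probe sets were called more often. When only the brightest 30% were tested, the share called by genotype went from 32.3% to 48.2% untreated and from 29.1% to 42.6% with ethanol. For ethanol it went from 22.2% to 37.5% in KO and from 5.58% to 11% in WT, and for the difference in ethanol effect from 5.35% to 12%. Acacb, the mitochondrial-membrane carboxylase, was dim (49.8 to 151) and never called, and neither was Srebf2.

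Several genes had more than 1 tested probe set, and these did not always move alike. For Scd1 the dimmer probe set (mean 7374), away from the top of the range, was higher in KO by 0.88 untreated (adjusted p = 3.8e-05) and 1.52 with ethanol (adjusted p = 1.5e-06), more than the brightest. For Acly a probe set of mean 2542 was higher in KO by 0.75 untreated and 1.84 with ethanol (adjusted p = 3.5e-06) and fell with ethanol in WT (-0.97), and another (mean 5924) was called higher only with ethanol (0.29). Every called probe set of these genes was higher in KO.

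Other genes disagreed in direction. The second Gpam probe set (mean 133) was higher in ethanol KO by 1.14 (adjusted p = 0.0020), opposite to the brightest, and 1 of the 2 others of Fads2 (mean 1766) was higher by 0.48 (adjusted p = 0.0023) while the other (mean 410) was lower by -1.30 (adjusted p = 0.00054). A dim Acaca probe set (mean 54.4) was higher in ethanol KO by 1.74 (adjusted p = 0.0030), where the brightest was not called. Of 3 further Hmgcs1 probe sets, 1 was called lower in untreated KO and 2 in ethanol KO, and all 3 fell with ethanol in KO (-0.58 to -0.47), unlike the brightest. In WT 2 of them also fell (-0.70, adjusted p = 0.0037, and -0.24, adjusted p = 0.048). A second Srebf2 probe set (mean 217) was lower in untreated KO (-0.73, adjusted p = 0.016). Averaging the probe sets of a gene turned the sign of Gpam with ethanol (0.16), of Acaca untreated (0.17), of Sc5d untreated (-0.44) and of the ethanol effect in KO of Fads1 (0.11) and Fdft1 (0.01). Among the calls that averaging ended without a turn of sign were genotype calls of Hmgcs1 and Fdft1. By limma, Hmgcs1 had an adjusted p of 0.33 untreated, and Fdft1 0.2 untreated and 0.28 with ethanol.

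The ratio of 3′ to 5′ signal of the pyruvate carboxylase (Pcx) control probe sets, which reads how far labelling reached along a transcript, was 10.02 and 16.8 for WT without ethanol, 26.7 and 44.5 for WT with it, 10.6 and 8.69 for KO without it and 4.91 and 5.45 for KO with it. It was thus highest in ethanol WT and lowest in ethanol KO, while the 2 untreated groups overlapped. The same ratio was 0.771 to 0.977 for Gapdh and 1.15 to 1.62 for Actb over the 8 arrays. The part of labelling in the differences between probe sets was not tested.

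**Figure D5:**
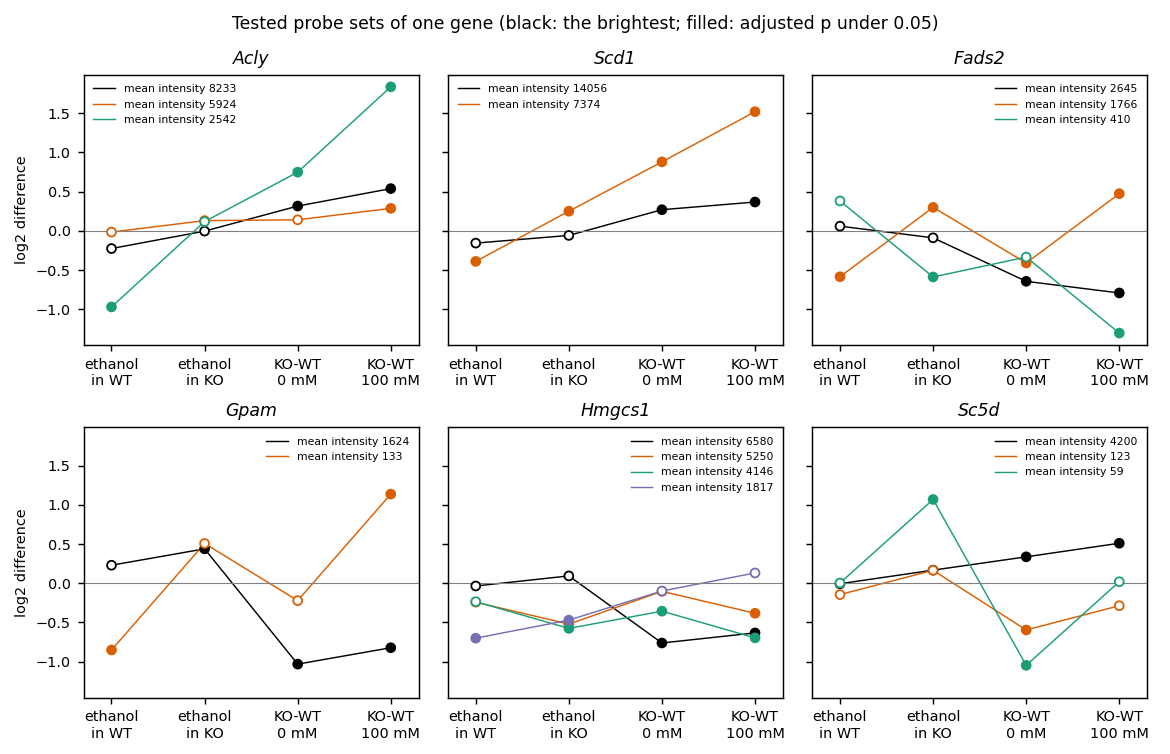
Log2 difference (y axis) in the 4 comparisons (x axis) for each tested probe set of 6 genes, black for the brightest and filled where the adjusted p is under 0.05. The probe sets of Acly and Scd1 share a direction by genotype, while those of Gpam, Fads2 and Sc5d part in at least 1 comparison.

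Further genes of both branches, from lists of 34 and 25, put these values in their pathway. Of 28 tested genes of fatty acid and triglyceride synthesis, 7 were higher and 13 lower in untreated KO, 11 higher and 7 lower in ethanol KO, 1 rose and 2 fell with ethanol in WT, 9 rose and 3 fell in KO, and limma called 5 higher and 0 lower for the difference in ethanol effect (10 and 3 at an unadjusted p under 0.05). Of 19 tested genes around cholesterol, the counts in the same order were 4 and 4, 4 and 2, 0 and 1 (2 and 2 unadjusted), 4 and 2, and 1 and 0 (3 and 3 unadjusted). As shares of the 19, higher then lower, calls were 21.1% and 21.1%, 21.1% and 10.5%, 0% and 5.26%, 21.1% and 10.5%, and 5.26% and 0%. Those of the fatty acid list were 25% and 46.4%, 39.3% and 25%, 3.57% and 7.14%, 32.1% and 10.7%, and 17.9% and 0%. All probe sets gave 15.3% and 16.9%, 14.0% and 15.1%, 1.67% and 3.91%, 11.4% and 10.8%, and 3.57% and 1.78%. Several shares of the cholesterol list thus lay near those of all probe sets.

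In the fatty acid list the genes with the smallest adjusted p included Pklr, liver pyruvate kinase and a ChREBP target, which read 871 and 805 in untreated WT and 1689 and 1608 in untreated KO (0.96 ± 0.09, adjusted p = 5e-05). Acsl5, an acyl-CoA synthetase, was higher in KO by 0.54 untreated and 0.52 with ethanol, and Agpat3 (-0.83) was lower and Hacd2 (0.68) higher in untreated KO. With ethanol, Hsd17b12 (0.53) and Acss2 (0.71) were higher in KO and Elovl2 (-0.72) was lower. Aacs, which makes acetoacetyl-CoA in the cytosol, rose with ethanol in KO from 546 and 495 to 1148 and 1020 (1.04 ± 0.10, adjusted p = 0.00039), alongside the citrate carrier Slc25a1 (0.91) and Agpat3 (0.48), while Agpat5 fell (-0.60). The ethanol effect differed between genotypes for Aacs (1.15 ± 0.14, adjusted p = 0.0035), Tecr (1.18), Slc25a1 (1.12) and Mid1ip1 (0.53), and in WT Hsd17b12 (-0.39) and Mid1ip1 (-0.30) fell and Hacd3 (0.40) rose.

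Around cholesterol, Stard4, a sterol transfer protein, was higher in KO, at 259 and 265 against 490 and 507 untreated (0.89 ± 0.11, adjusted p = 0.00031) and 228 and 248 against 519 and 538 with ethanol (1.10 ± 0.11, adjusted p = 9.6e-05). Scap, which escorts SREBP out of the endoplasmic reticulum, was lower in untreated KO, at 875 and 991 against 508 and 558 (-0.79 ± 0.12, adjusted p = 0.0010), and rose with ethanol in KO to 1051 and 1234 (1.07 ± 0.12, adjusted p = 0.00067). Ebp, a sterol isomerase, followed the same order (-0.67 and 0.51). Msmo1, the sterol methyl oxidase, was higher in KO untreated (0.42) and with ethanol (0.34) and fell with ethanol in WT (-0.30) and in KO (-0.38, adjusted p = 0.0039). Npc1, the lysosomal cholesterol exporter, was higher in ethanol KO (0.82). Tm7sf2, a sterol reductase, was higher in ethanol KO (0.62) and rose with ethanol in KO from 727 and 816 to 1811 and 1658 (1.15 ± 0.11, adjusted p = 0.00039), more than in WT (difference 1.17 ± 0.16, adjusted p = 0.0051), while Lbr, the other such reductase, fell (-0.72).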

How the data were processed

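RNA of 8 samples, 2 in each of 4 groups, was hybridised to 8 one-colour Affymetrix arrays. The deposited values are linear intensity values for 45101 probe sets (64 controls), made with software and a scaling not given in the sources used here; their unit was inferred from their range. Deposited medians were 30.1 and 28.1 (WT untreated A, B), 29.9 and 28.3 (WT ethanol), 13.3 and 12.8 (KO untreated) and 23.4 and 37.1 (KO ethanol), so the arrays were not on a common scale. On WT ethanol B, 5410 values were unusable (5403 exact zeros, 7 impossible as intensities), which left 39627 complete probe sets.

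Intensities were quantile normalised and transformed as log2(intensity + 16), and the brighter 50% (19814, mean log2 of at least 5.4) were tested with limma 3.58.1 in R 4.3.3: 4 group means, an intensity trend, 4 residual and 5.43 prior degrees of freedom, and Benjamini-Hochberg adjustment within each of 5 contrasts. The platform annotation gave 34945 probe sets 1 symbol, 932 several and 9160 none (controls aside). Named were all called genes up to 10 per branch and contrast by adjusted p, with Fasn, Acaca, Scd1, Srebf1, Mlxipl, Srebf2, Insig1, Hmgcs1 and Sqle always, and up to 4 further pathway genes per branch. The members and lists were chosen with earlier results of these data known. The letters A and B were not treated as pairs. Alternatives were a replicate block, a spike-in class term (ratio split at 2), other offsets (64 or none), filters (brightest 30% or none), trimmed-mean scaling, no trend, incomplete probe sets kept, the mean of a gene's probe sets, compared groups alone, the B ethanol arrays left out or counted as untreated, and each array left out. The fit was tested on simulated data. The number of arrays limits the precision. Promoter windows came from RefSeq, GRCm38.p6; a gene with no window there is not shown.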

Additional observations from a re-analysis of the deposited data

Results flagged for a closer look

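The ethanol effect differed between KO and WT, by limma's test of the difference itself over 2 arrays per group, for 9 genes. In the fatty acid branch the KO effect exceeded the WT effect by 1.08 on the log2 scale for Fasn, 0.87 for Srebf1, 0.70 for Thrsp, 0.67 for Agpat2 and 0.59 for Me1. In the cholesterol branch the difference was 0.50 for Fdps, -0.49 for Cyp51, -0.66 for Idi1 and -0.96 for Insig1, the last with a single usable array of ethanol-treated WT cells. These values are of the brightest probe sets. The other tested probe sets of Thrsp, Me1, Idi1 and Cyp51 were not called for this difference, and that of Me1 had the opposite sign. Dimmer probe sets of Acly, Fads2, Dgat2, Gpam and Scd1 were called upward for it, where the brightest of those genes were not called.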

How the results depend on the processing

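Of 1546 values of the 74 named calls under the alternatives, 1275 kept their direction and their call, 264 kept the direction only and 7 reversed. The reversed ones were, with the mean of a gene's probe sets, the ethanol effect in KO of Fads1 (0.11) and Fdft1 (0.011), Acaca (0.17) and Sc5d (-0.44) for KO minus WT without ethanol and Gpam (0.16) for KO minus WT with ethanol; with both B ethanol arrays taken as untreated, Fasn for KO minus WT without ethanol (0.10); and with trimmed-mean scaling, Fdps for the same (0.020). Taking both B ethanol arrays as untreated leaves 1 ethanol array per genotype, and calls over all probe sets fell there too. Leaving out 1 array also moved the calls over all probe sets. Without an intensity trend those calls went from 1105 to 286 for ethanol in WT and from 1061 to 85 for the interaction. Counts of called genes are given for fatty acid, then cholesterol genes. With both B ethanol arrays taken as untreated they were 5 and 4 for KO minus WT with ethanol (14 and 11 as reported) and, by limma, 0 and 0 for ethanol in KO, ethanol in WT and the interaction (6 and 1, 0 and 0, and 3 and 0 at an unadjusted p under 0.05); with these arrays left out, 9 fatty acid genes for the interaction and 3 cholesterol genes for ethanol in WT. Without an intensity trend they were 7 and 2 for ethanol in KO, 1 and 0 for ethanol in WT (3 and 6 unadjusted), 0 and 0 for the interaction (8 and 3 unadjusted), and 7 cholesterol genes for KO minus WT with ethanol. The cholesterol count with incomplete probe sets kept was 4 for ethanol in KO, 3 in WT and 1 for the interaction; without a filter it was 4 and 3 for ethanol in KO and WT; with the mean of probe sets it was 5 for KO minus WT without ethanol, 1 for ethanol in WT and 0 for the interaction (3 unadjusted). The compared groups alone gave 4 fatty acid genes for ethanol in WT. Leaving out 1 array gave 5 to 13 and 1 to 6 genes for ethanol in KO, 2 to 5 and 1 to 5 for ethanol in WT, 1 to 10 and 0 to 3 for the interaction, 9 to 13 and 6 to 11 for KO minus WT without ethanol, and 7 to 11 cholesterol genes with ethanol. The replicate block gave 4 cholesterol genes for ethanol in WT (5 as reported) and moved no count by over 1.5 times. The labels do not say what a letter shares, and same-letter deviations from the group means correlated at 0.02 to 0.30. The cause of these changes was not tested. Trimmed-mean scaling moved the median of all probe sets for KO minus WT with ethanol from -0.05 to 0.06. With 2 arrays per group and the label conflict of the B ethanol arrays, calls near the threshold are the least certain.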
